A study of Mus musculus with 8 samples.

Results

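The extrinsic death pathway was followed through 10 genes of the lactating mouse mammary gland: the ligand gene Tnfsf10, the receptor genes Fas, Tnfrsf1a and Tnfrsf10b, the adaptor genes Fadd and Tradd, the kinase gene Ripk1, the inhibitor gene Cflar, and the death-associated protein kinase genes Dapk1 and Dapk2. They were chosen by name, through the transcript accession printed for each probe on the array, out of 18749 genes with a probe. All 10 were among the 14137 genes tested, and their 19 probes were each well above background on all 8 arrays. No. 4 mammary glands had been taken at lactation day 1 from 4 wild-type (WT) and 4 Th-POK-deficient (knockout, KO) female mice of the C57/Bl6 strain, and the RNA of each dam was hybridised to 1 one-colour Agilent array. Th-POK is the BTB zinc finger transcription factor encoded by Zbtb7b. The KO was not restricted to the gland, so other tissues of the dams lacked Th-POK too, and the females were matched for age, with no age given in the sources used here. Expression of apoptosis genes was among the questions the study put to these arrays.

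Death ligands such as TRAIL (Tnfsf10), FasL and TNF bind receptors that carry a death domain inside the cell. Fas and the TRAIL receptor recruit FADD, which in turn recruits caspase-8, whereas TNF receptor 1 recruits TRADD and RIPK1 first and can signal either survival through NF-κB or death. The DAPK kinases are calcium and calmodulin-regulated serine/threonine kinases that promote death and autophagy. In the mammary gland, death of the milk-secreting epithelium is the normal event of involution after weaning.

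The share of probes well above background was 66.9% to 75.3% per WT array and 66.8% to 70.9% per KO array, with 0 saturated spots. The Zbtb7b probe read 9.90, 10.42, 10.13 and 10.23 (log2 signal) in WT glands, and on no KO array was it well above background. Against the lowest signal of probes well above background, Zbtb7b was at least 81.5-fold lower in KO glands. The limma fit gave an adjusted p of 5.71e-09. That fit used the KO signals as measured, which were not well above background, so the p does not belong to the bound. The WT arrays all lay on 1 slide and the KO arrays on another, so genotype and slide cannot be told apart in any value that follows. Whole glands were measured, so fewer cells of a type and less RNA per cell cannot be told apart either. All 9 luminal epithelial markers tested, among them Krt8, Elf5, Csn2 and Wap, were well above background on every array.

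Dapk2 was the member with the clear difference and Fadd the member with a small one. Dapk2 rose about 2-fold in KO glands, and Fadd fell to about 0.72 of its WT level. The other 8 genes did not pass the test, also at an unadjusted p under 0.05. Of the 10 genes, 1 was thus called higher and 1 lower, a call being an adjusted p under 0.05 (limma, adjusted by Benjamini-Hochberg over all genes tested). Over all genes tested, 16.5% passed in either direction, 7.53% higher and 8.96% lower, so the share of the 10 genes that passed lay near that background. The median log2 difference (KO minus WT) of the 10 genes was 0.14 and the median size of it 0.17, against -0.02 and 0.27 over all genes tested. All 4 KO arrays lay above all 4 WT arrays for 1 of the 10 genes (11.1% over all genes tested) and below them for 1 (12.9%).

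**Figure D1:**
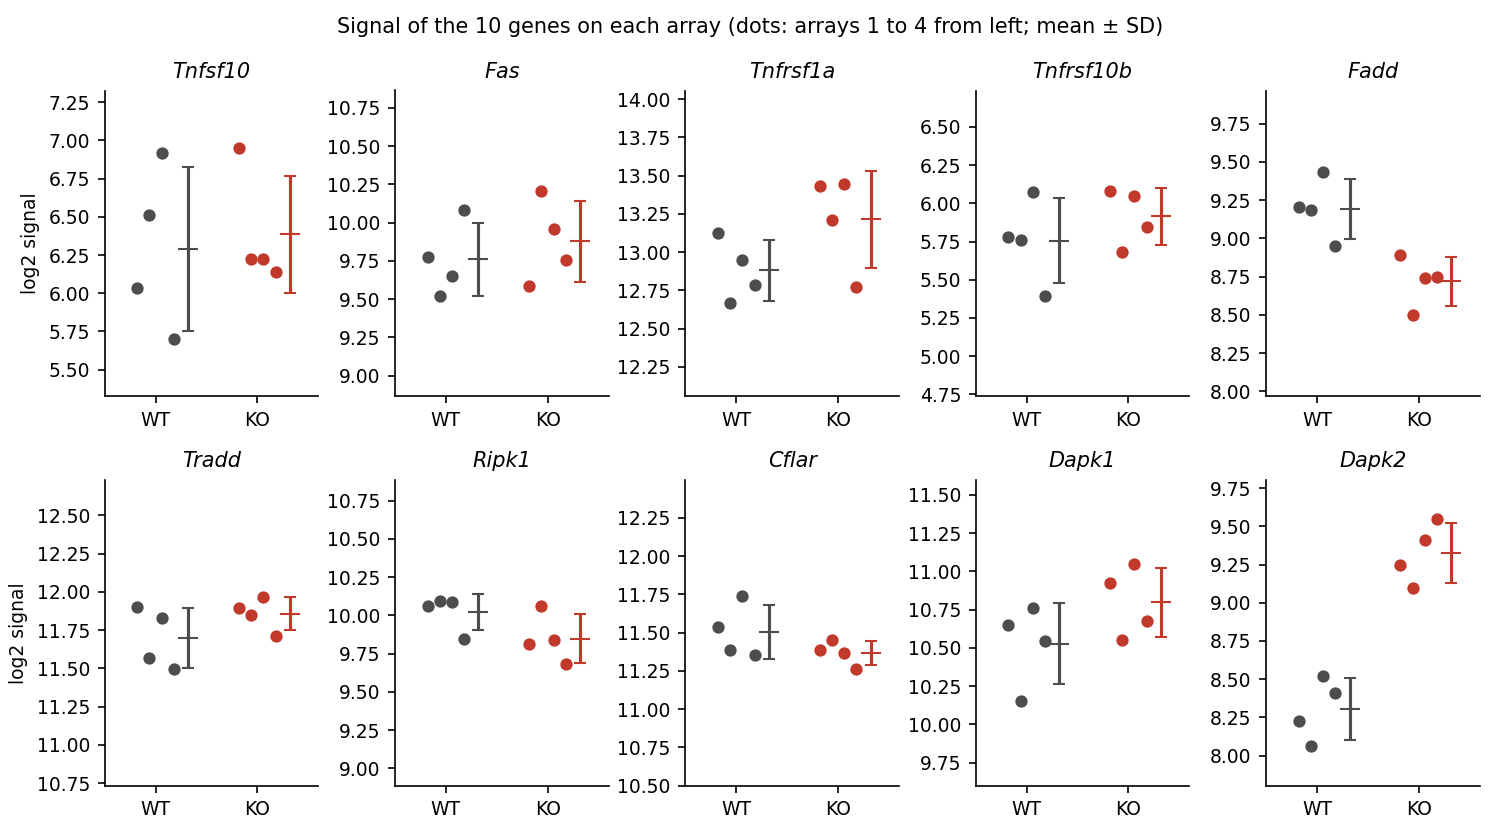
Log2 quantile-normalised signal of the 10 genes on each array; every panel spans 2 log2 units, dots are the 4 WT (grey) and 4 KO (red) arrays, and bars give mean ± SD. The genotypes are fully separated for Dapk2, where KO arrays lie higher, and for Fadd, where they lie lower, and overlap for the other 8 genes.

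Promoter windows are shown for the pair of members that passed the test, so that the sequence upstream of each can be read beside its values. Each window is the 250 bases before the transcription start in RefSeq's annotation of GRCm38.p6, read 5′ to 3′ on the gene's strand. The Dapk2 window lies at chr9:66157976-66158225 on the plus strand and the Fadd window at chr7:144582442-144582691 on the minus strand. Capitals mark a match to 1 of 3 motifs searched on both strands.
Dapk2: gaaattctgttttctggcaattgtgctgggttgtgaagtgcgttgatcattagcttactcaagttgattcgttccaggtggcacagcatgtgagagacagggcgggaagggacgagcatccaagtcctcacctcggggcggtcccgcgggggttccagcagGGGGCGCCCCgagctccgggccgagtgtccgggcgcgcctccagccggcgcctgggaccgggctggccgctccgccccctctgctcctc
Fadd: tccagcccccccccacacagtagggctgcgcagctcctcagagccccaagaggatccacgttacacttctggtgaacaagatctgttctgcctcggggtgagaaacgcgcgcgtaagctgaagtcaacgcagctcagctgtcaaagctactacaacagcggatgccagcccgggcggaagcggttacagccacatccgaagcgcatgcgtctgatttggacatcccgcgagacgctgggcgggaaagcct
The motifs were GACCACC, a core of ZBTB7B binding sites, TTCNNNGAA, the STAT palindrome, and the NF-κB consensus. Of 32851 promoter windows of this length, 2.34% held the first, 7.02% the second and 7.25% the NF-κB consensus. The Dapk2 window held 1 NF-κB match, starting 89 bases before the start and reading the same on both strands, and none of the other motifs. The Fadd window matched none of the 3. Both windows were rich in CpG: Dapk2 had 20 CpG and 65.2% GC, and Fadd had 19 CpG and 60.4% GC, against a median of 6 CpG over all windows. This was not particular to them: windows of members that did not pass ran from 6 CpG (Tnfsf10) to 33 (Dapk1), with Ripk1 at 19 and 32. Of the 8 members with a promoter in the table (Tradd and Tnfrsf10b had none), Fas and Tnfrsf1a held 1 STAT match each and the second of the Ripk1 windows held 2. These matches describe letters only, and binding was not measured.

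Tnfsf10, which encodes the ligand TRAIL, showed the widest scatter of the 10 genes. Its log2 signal was 6.03, 6.51, 6.92 and 5.70 in the WT glands and 6.95, 6.23, 6.22 and 6.14 in the KO glands. The genotypes overlapped, with KO array 1 the highest of all 8 and the other KO arrays within the WT range. The difference was 0.10 (standard error 0.29, adjusted p = 0.834, limma), and its 95% confidence interval, as a fold of KO over WT, ran from 0.680 to 1.68. Its sign turned when WT array 4 (-0.10) or KO array 1 (-0.09) was left out.

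The receptors did not pass the test, with log2 differences between 0.12 and 0.33. Tnfrsf1a, which encodes TNF receptor 1, had signals of 13.12, 12.67, 12.95 and 12.78 in WT glands and 13.44, 13.21, 13.44 and 12.77 in KO glands. KO arrays 1 to 3 were above every WT array, whereas KO array 4 lay within the WT range. Its difference of 0.33 (standard error 0.18, adjusted p = 0.202, limma) corresponded to 1.26-fold (95% confidence interval 0.956 to 1.66), and 3 of 4 pairs of arrays with the same replicate number were higher in KO glands. Fas, the FasL receptor, was measured between 9.52 and 10.09 in WT and between 9.59 and 10.21 in KO glands, a difference of 0.12 (interval 0.83- to 1.42-fold) that ran from 0.0086 without KO array 2 to 0.23 without WT array 4. A second Fas probe, A_52_P73385, had a difference of -0.18 (adjusted p = 0.707), so the sign of Fas depended on the probe. Tnfrsf10b, the mouse TRAIL death receptor, differed by 0.16 (interval 0.866- to 1.44-fold), and its 3 probes gave 0.16, 0.17 and 0.30, none past the threshold. Without WT array 4 its difference was 0.04, and without WT array 3 it was 0.27. Fas and Tnfrsf1a were printed 10 times on each array, which gives the spread of spots within an array. The SD between spots of 1 array was at most 0.068 for Fas and 0.066 for Tnfrsf1a. Between arrays, each with 1 dam, the SD was 0.24 (WT) and 0.27 (KO) for Fas and 0.20 and 0.32 for Tnfrsf1a. Repeat spots thus varied less than arrays did. With 1 array per dam, the spread of dams and that of array handling cannot be told apart.

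Fadd, which couples the receptors to caspase-8, fell in KO glands by a small amount that both of its probes showed. By probe A_51_P382925 its log2 signals were 9.20, 9.18, 9.43 and 8.95 in WT glands and 8.89, 8.50, 8.74 and 8.75 in KO glands. All KO arrays lay below all WT arrays, with the nearest arrays (WT array 4 and KO array 1) 0.06 apart. Mean signal was 9.19 ± 0.20 (SD, n = 4 arrays) in WT and 8.72 ± 0.16 (SD, n = 4 arrays) in KO glands, a difference of -0.47 (standard error 0.13) or 0.721-fold (95% confidence interval 0.584 to 0.889, adjusted p = 0.0445, limma). The second probe, A_52_P192418, had signals of 8.43, 8.36, 8.50 and 8.26 in WT glands and 7.80, 7.91, 7.95 and 8.01 in KO glands. Its groups did not overlap either, and its difference was -0.47 (adjusted p = 0.0222 over 20838 probes, limma). Blocking on replicate number gave Fadd an adjusted p of 0.0538 (limma). The call was lost without WT array 1 (adjusted p = 0.0618), WT array 2 (0.101) or WT array 3 (0.10), and likewise without any KO array (array 1, 0.0667; array 2, 0.105; array 3, 0.102; array 4, 0.0650), although the difference stayed between -0.55 and -0.39.

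Tradd, the adaptor of TNF receptor 1, did not share the direction of Fadd: it was measured at 11.90, 11.57, 11.83 and 11.498 in WT glands and 11.90, 11.85, 11.97 and 11.71 in KO glands. The difference was 0.16 (standard error 0.12, adjusted p = 0.388, limma; interval 0.918- to 1.35-fold) with overlapping groups. Whether the Fadd and Tradd differences differ from each other was not tested.

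Ripk1 encodes the kinase that sits at the fork between NF-κB signalling, apoptosis and necroptosis. By its brightest probe it had signals of 10.06, 10.09, 10.09 and 9.84 in WT and 9.81, 10.06, 9.84 and 9.68 in KO glands, a difference of -0.17 (standard error 0.12, adjusted p = 0.310, limma) that was below 0 in each of the 4 pairs. The other probes pointed the other way, at 0.08 (A_51_P430952, adjusted p = 0.609) and 0.29 (A_52_P452740, adjusted p = 0.0927). By the latter, KO arrays at 6.52, 6.34, 6.51 and 6.53 all lay above WT arrays at 6.33, 6.05, 6.25 and 6.13, so no direction could be given for Ripk1. Cflar encodes c-FLIP, the caspase-8 homologue that blocks the death-inducing complex. Its 4 probes had differences from -0.14 to 0.02, and the brightest gave -0.14 (standard error 0.11, adjusted p = 0.413, limma; interval 0.761- to 1.09-fold).

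**Figure D2:**
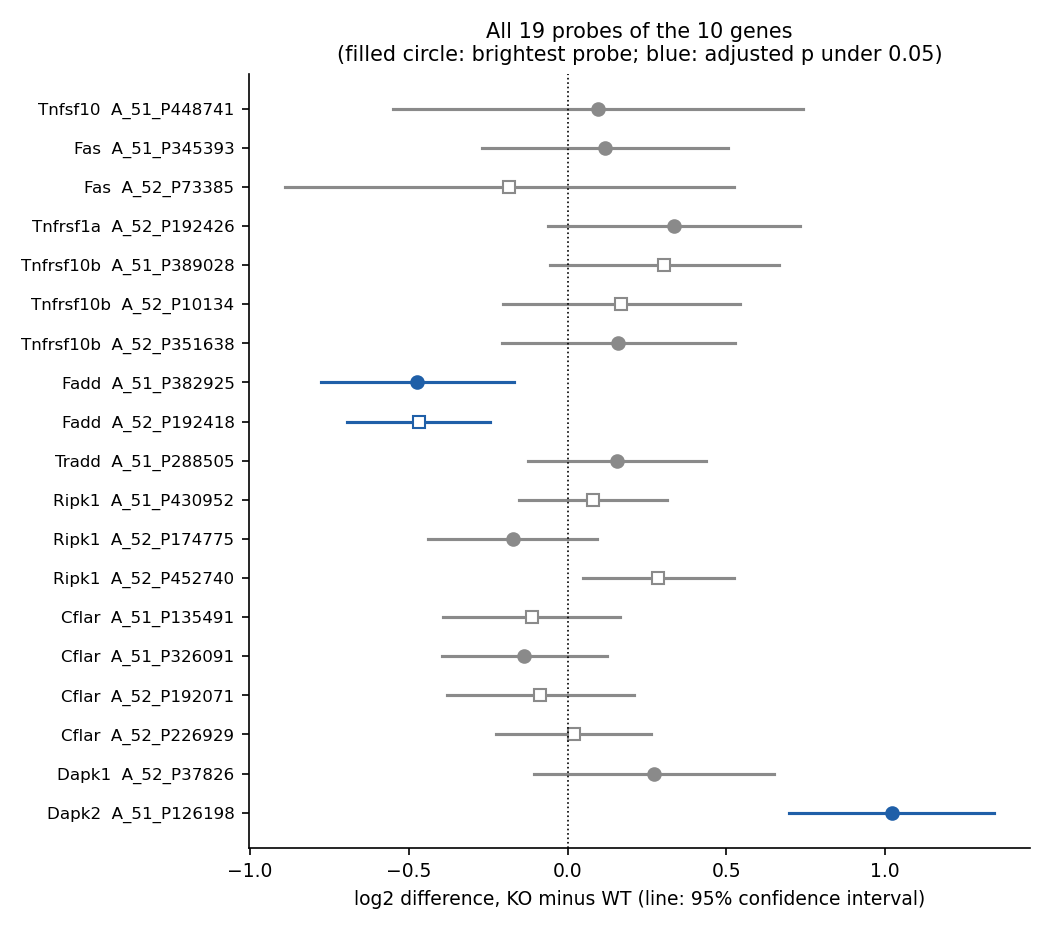
Log2 difference (KO minus WT) of each of the 19 probes with its 95% confidence interval; filled circles are the brightest probe of a gene, open squares its other probes, and blue marks an adjusted p under 0.05 over all probes. Both Fadd probes lie at -0.47, Dapk2 lies at 1.02, and the probes of Fas, Ripk1 and Cflar fall on both sides of 0.

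Dapk2, the shorter relative of Dapk1, was the only one of the 10 genes that was called higher. Its probe, A_51_P126198, read 8.22, 8.06, 8.52 and 8.41 on the WT arrays and 9.25, 9.10, 9.41 and 9.54 on the KO arrays. Every KO array lay above every WT array, with a gap of 0.58 between the nearest arrays. Mean signal rose from 8.31 ± 0.20 (SD, n = 4 arrays) to 9.32 ± 0.19 (SD, n = 4 arrays), a log2 difference of 1.02 (standard error 0.14), or 2.03-fold with a 95% confidence interval of 1.62 to 2.54 (adjusted p = 0.00811, limma). The 4 pairs differed by 1.02, 1.03, 0.89 and 1.13. Dapk2 had 1 probe on the array, so no second probe stood beside it.

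Dapk1, which encodes the larger founding member of the kinase family, had signals of 10.65, 10.15, 10.76 and 10.55 in WT and 10.92, 10.55, 11.05 and 10.67 in KO glands. It was higher in KO glands in 4 of 4 pairs, but the groups overlapped and the difference of 0.27 (standard error 0.17, adjusted p = 0.268, limma; interval 0.929- to 1.57-fold) did not pass, nor did it in the fit blocked on replicate number (0.103). To compare the changes of the kinases, the Dapk1 signal was subtracted from that of Dapk2 on each array. The result was -2.42, -2.09, -2.24 and -2.13 on the WT arrays and -1.68, -1.46, -1.64 and -1.13 on the KO arrays. These sizes mix the brightness of unlike probes, and only their shift between genotypes can be read. It was 0.75 with no overlap (exact permutation test, two-sided, p = 0.0286, the smallest that 70 relabelings of the arrays can give). Dapk2 alone already separated the genotypes on these arrays, and the members were chosen with earlier results of these data known. This p is therefore no separate support for a difference. Within the 4 pairs an exact test cannot go below 0.125, the value it gave.

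**Figure D3:**
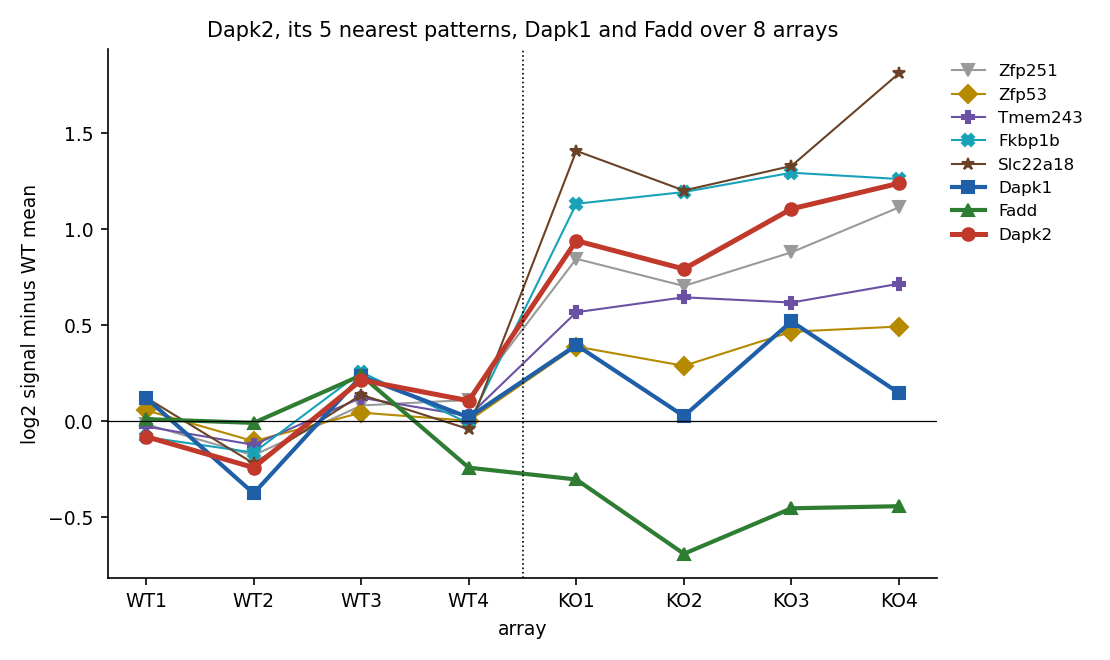
Log2 signal minus the WT mean for Dapk2, Dapk1, Fadd and the 5 genes whose signals were most like those of Dapk2, on each of the 8 arrays; lines join the points of a gene and imply no order of arrays. Dapk2 and the 5 genes lie above their WT values on all KO arrays, and Dapk1 lies nearer to its WT mean than Dapk2 does on each KO array.

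The genes whose signals followed Dapk2 most closely over the 8 arrays were Zfp251 (Pearson r = 0.993), Zfp53 (0.983), Tmem243 (0.981), Fkbp1b (0.978) and Slc22a18 (0.978). Mean signals of all 5 were higher in KO glands, with log2 differences of 0.89, 0.41, 0.64, 1.22 and 1.44, and the shared genotype difference is part of these correlations. After the genotype means were removed, r with Dapk2 was 0.931, 0.839, 0.797, 0.780 and 0.751. The 5 genes were picked by r over these same arrays, so these values are high by selection and are no separate support. Zfp251 was well above background on only 2 of the 4 WT arrays, and with normexp background correction its difference was 0.15 (adjusted p = 0.148, limma) and that of Tmem243 was 0.34 (adjusted p = 0.0245). Zfp53 lost its call without WT array 2 (adjusted p = 0.0696), WT array 3 (0.0573), KO array 1 (0.0622) or KO array 3 (0.0800). Among the other members, r with Dapk2 ran from -0.73 for Fadd and -0.72 for Ripk1 (brightest probe) to 0.67 for Dapk1. Genotype means were left in for these r values, so the genotype differences are part of them. They do not show how the members varied together within a genotype.

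Markers of cell types were measured on the same arrays as Dapk2 and Fadd. Neutrophil markers had a mean log2 signal of 6.95 to 7.71 on the WT arrays and 8.85 to 9.89 on the KO arrays, and 3 of the 8 tested (Camp, Ngp and Ltf, the latter also a milk protein gene) were called higher. Camp and Ngp were well above background on 0 WT arrays and on all 4 KO arrays, so they entered the test through the KO group alone and their WT signals are only a bound. Over the 6 neutrophil markers well above background on all 8 arrays, a subset chosen after the data were seen, the mean was 8.39 to 9.50 in WT and 9.68 to 10.72 in KO glands, and Ltf was the 1 marker called, while Mpo (0.24), Csf3r (0.08), S100a8 (0.49), Retnlg (1.09) and S100a9 (2.19) did not pass. Elane and Cxcr2 did not pass the filter on dim probes, and Ly6g had no matched probe. Luminal markers also separated the genotypes, at 15.27 to 15.48 in WT and 15.52 to 15.67 in KO glands, with 3 of 9 higher (Cdh1, Epcam and Krt18). The markers of the secretory state did not share that direction: log2 differences were -0.35 for Elf5 and -0.45 for Lalba, below 0 in all 4 pairs and not past the threshold, 0.01 for Csn2 and 0.07 for Wap. Csn2 and Wap lay at the bright end, where quantile normalisation gave arrays of both genotypes identical values. Wap, for example, was 18.44 on WT arrays 2 and 3 and on KO array 2. This limits what their small differences can show. Fibroblast markers lay at 13.55 to 13.77 in WT and 13.88 to 14.45 in KO glands, with 1 of 5 called higher (Dcn). All 5 had log2 differences above 0 (0.335 to 0.569) and an unadjusted p under 0.05 (limma). T cell markers were at 6.14 to 7.27 in WT and 6.18 to 6.48 in KO glands, and Cd3e and Cd4 were called lower among 7 tested. Calls among the other lists were 2 of 7 adipocyte (Cfd and Plin1), 1 of 4 NK cell (Ncr1) and 1 of 6 B cell markers (Cd79b), all higher, with mean levels that overlapped between the genotypes. Ncr1 was well above background on only 2 WT arrays but on all 4 KO arrays. It thus entered the test through the KO group alone, and its call is no support for a difference in NK cells. Of 5 eosinophil markers only Prg2 and Ccr3 passed the filter. They gave 0 calls by limma, as did the markers of macrophages (7 tested), basal epithelium (5) and endothelium (5), with 1, 0, 0 and 1 at an unadjusted p under 0.05 and 0 by the methods' t-test. The part of these cell types in the Dapk2 and Fadd differences was not tested.

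Around the 10 genes, 59 of 65 other genes of the pathway could be tested, and 1 of them was called higher and 5 lower in KO glands. Over all genes tested the shares were 7.53% higher and 8.96% lower. The share of the 59 called lower lay near that background and the share called higher below it. All KO arrays lay above all WT arrays for 4 of the 59 (11.1% over all genes tested) and below them for 9 (12.9%). Their median log2 difference was -0.06. None of 4 ligands (Fasl, Tnf, Ltb and Tnfsf12), 3 further receptors with a death domain or 20 genes of the TNF receptor complex and its ubiquitin machinery passed in limma. At an unadjusted p under 0.05 there were 2, 0 and 6 genes in these groups, and the methods' t-test after adjustment called 0, 0 and 1. Fem1b, a substrate receptor of a ubiquitin ligase reported to bind Fas and TNF receptor 1, was the gene called higher, from 12.09 to 12.71 (difference 0.62, standard error 0.13, adjusted p = 0.0214, limma). Its call was lost without WT array 2 (adjusted p = 0.0576), WT array 3 (0.0568) or KO array 3 (0.0643).

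The 5 lower genes had different roles. Diablo, whose product Smac releases caspases from their inhibitors, differed by -0.38 (adjusted p = 0.0369, limma) and was the only one of 9 death arm genes to pass, while Casp8, the caspase that FADD recruits, differed by -0.08 (adjusted p = 0.759). Dap, a small protein found in the same death screen as Dapk1, fell by 0.73 on the log2 scale (adjusted p = 0.0371), and the third DAPK gene, Dapk3, differed by -0.29 (adjusted p = 0.111). Tnfrsf22, a mouse decoy receptor for TRAIL, fell by 0.54 (adjusted p = 0.0389), and Madd, which binds the death domain of TNF receptor 1, fell by 0.36 (adjusted p = 0.0469). Faim2, an inhibitor of Fas signalling, fell by 1.24 by its brightest probe (adjusted p = 0.0166) but by 0.10 with its probes averaged (adjusted p = 0.568). In a fit blocked on replicate number, Diablo (adjusted p = 0.0555) and Madd (0.0575) did not pass. With normexp background correction the Tnfrsf22 difference was -0.19 (adjusted p = 0.190, limma). With no filter on dim probes Dap (0.0554), Tnfrsf22 (0.0554) and Madd (0.0582) lost their calls, as did Dap (0.0733) and Tnfrsf22 (0.0642) by the methods' t-test and Madd with 75th percentile scaling (0.0515) and with unmatched probes kept (0.0534). Each of the 5 lost its call when certain single arrays were left out. Faim2 lost it without KO array 3 (adjusted p = 0.0532). Dap kept its call only without WT array 1 or KO array 4, Tnfrsf22 only without WT array 1 or WT array 4, Diablo only without WT array 4 and Madd only without WT array 1, with adjusted p up to 0.0995, 0.0945, 0.0961 and 0.118.

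**Figure D4:**
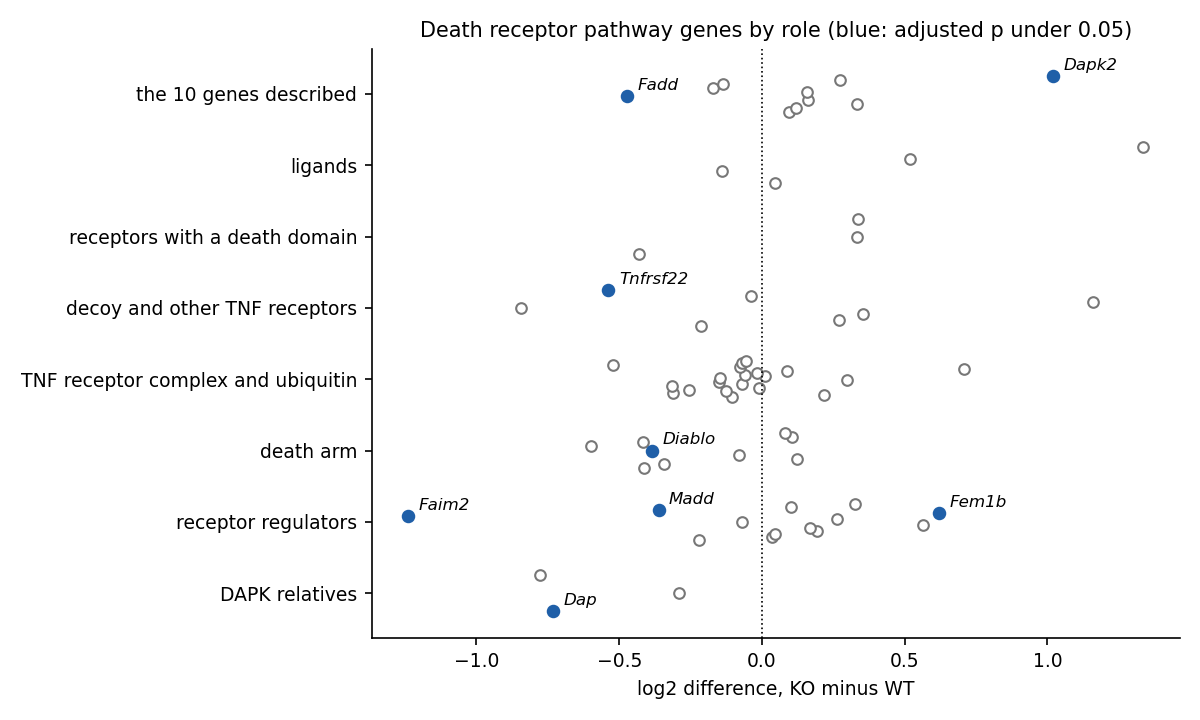
Log2 difference (KO minus WT) of the 10 genes and of 59 other pathway genes by role, 1 circle per gene; filled blue circles with names have an adjusted p under 0.05. The named genes are Dapk2 and Fem1b on the higher side and Fadd, Tnfrsf22, Diablo, Faim2, Madd and Dap on the lower side.

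Outside the receptor pathway, 2 of 6 other caspases were called, both higher, 1 of 7 Bcl2 guardians and pore formers was higher and 1 lower, and 2 of 9 BH3-only genes were called, both higher, by the same limma fit. Together 5 of these 22 genes were called higher and 1 lower, beside 7.53% and 8.96% over all genes tested. Whether these lists differ from that background was not tested. The call of Dapk2 held in each of 17 other ways of processing the data or leaving out an array, with log2 differences from 0.88 to 1.10 and adjusted p from 0.00774 to 0.0322. That of Fadd held in 7 of the 17, with adjusted p from 0.0245 to 0.105 and a difference below 0 in all of them.

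**Figure D5:**
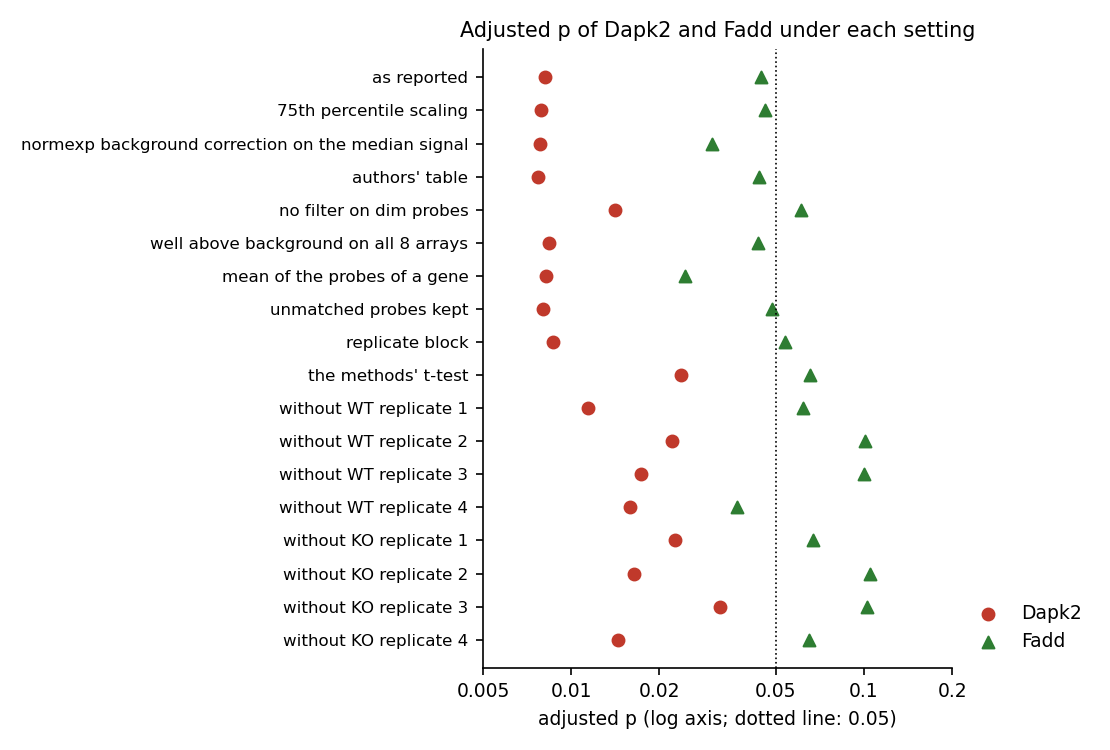
Adjusted p of Dapk2 (circles) and Fadd (triangles) as reported and under 17 alternatives, on a log axis with a dotted line at 0.05. All Dapk2 points lie left of the line, and the Fadd points lie on both sides of it.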

How the data were processed

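RNA from 4 WT and 4 KO glands was measured on Agilent 4x44K arrays, 1 dam per array, grouped by the sample labels. The authors deposited the scanner output of Agilent Feature Extraction 10.7, whose processed intensity values are background-subtracted and detrended within each array, and a table of log2 values quantile-normalised in GeneSpring. That table correlated with the processed intensities at r = 0.9985 to 0.9999 per array, had a median of 6.33 in each column, and was an alternative only.

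Log2 processed intensities of all spots other than controls were quantile-normalised between arrays with limma 3.58.1 in R 4.3.3. Outlier spots (64 to 100 per array) were then left out and the remaining spots of a probe averaged, giving 41174 probes. Symbols came from each probe's accession through RefSeq's gene table (27479 probes matched, 18749 symbols, 26728 of 27094 NM accessions). A probe was kept if all 4 arrays of either genotype measured it well above background, and the brightest probe stood for a gene. Genotypes were compared with lmFit and eBayes and called at an adjusted p under 0.05 (Benjamini-Hochberg over 14137 genes). Precision was limited by the 4 arrays per genotype. Member probes were also fitted one by one, adjusted over 20838 probes. The fit was tested on simulated data.

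The members and lists were chosen with earlier results of these data known. Named genes are all members, the other pathway genes past the threshold in order of p, the 5 genes most correlated with Dapk2, and Zbtb7b; marker and comparison lists are given by counts, and the marker genes named, Casp8, Dapk3, the ligands listed, Tnf, Tnfrsf12a and Stk17b fall outside that rule and were picked after their values were seen.

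WT and KO arrays of the same replicate number deviated together from their group means (r = 0.22, 0.16, 0.30 and 0.28). The mean of -0.08 for other numbers is no separate evidence. Deviations from a group mean cancel within the group, so it largely follows from the same-number values. For only 2 of the replicate numbers was the same-numbered array the best match. Pairing by number was therefore an assumption, and a fit with the number as a block was an alternative. What same-numbered glands share is not given in the sources used here. Other alternatives were the 75th percentile scaling, normexp, the authors' table, other filters, the mean of probes, unmatched probes kept, the methods' t-test with Benjamini-Hochberg adjustment, and leaving out each array. Promoter windows are RefSeq's for GRCm38.p6.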

Additional observations from a re-analysis of the deposited data

Results flagged for a closer look

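Of 46 sets of 4 arrays examined (1 named gene, or Dapk2 minus Dapk1, in 1 genotype), 2 had an array far from the others, and chance alone sets apart about 1 in 20. Tnfsf10 on KO array 1 was at a log2 signal of 6.95, against 6.14 to 6.23 on the other KO arrays. Without that array the Tnfsf10 difference was -0.09 in place of 0.10. Ripk1 on WT array 4 was at 9.84, against 10.06 to 10.09 on the other WT arrays, and the Ripk1 difference remained past no threshold without it.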

How the results depend on the processing

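Dapk2 was called higher, and no other member, under all 17 alternatives. The count of members lower was 0 in place of 1 with no filter on dim probes (Fadd adjusted p = 0.0609), with the replicate number as a block (0.0538) and by the methods' t-test (0.0657), and 0 to 1 with an array left out. Other pathway genes higher numbered 3 with the block (Tnf and Tnfrsf12a joined, adjusted p in the unblocked fit 0.0633 and 0.0598) and 0 to 5 with an array left out; those lower numbered 2 with no filter and 0 to 5 with an array left out. Stk17b joined the lower genes with the block, and Diablo (0.0555) and Madd (0.0575) left them; the block changed the call of no other member or named pathway gene. Genes called numbered 2331, or 1389 by the methods' t-test and 515 to 3070 with an array left out. The count moved by over 1.5 times without WT array 2 (767) or 3 (983), or without KO array 1 (756), 2 (946) or 3 (515). The shift of Dapk2 minus Dapk1 was 0.75 in the block test (p = 0.125, the smallest an exact test of 4 pairs can give).

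Signs turned only in members that passed no threshold. Tnfsf10 was at -0.035 with normexp and -0.10 to 0.30 with an array left out, Fas at -0.032 and Ripk1 at 0.064 with the mean of probes. Single probes gave -0.18 for Fas, 0.080 and 0.29 for Ripk1 and 0.020 for Cflar. Normexp used the median signal, chosen after seeing the data, because the mean signal column named beforehand was not in the files used here. Slide as a block was not run, as each slide held 1 genotype. All 19 member probes were well above background on every array, so no member's difference was a bound.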
